A study of Mus musculus and blank sample with 191 samples.

Results

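The 9 genes described here carry out MHC class II antigen presentation: Cd74, H2-Aa, H2-Ab1, H2-Eb1, H2-DMa, H2-DMb1, H2-Oa, Ciita and Ctss. They were taken by symbol, without a threshold on their values. All 9 were among the 19962 targets of a mouse whole-transcriptome probe panel, and all 9 were also among the 14881 targets that passed the authors' detection filter and were fitted here. Each was followed in the epithelium and in the stroma of the mouse uterus, in mutant and wild-type mice and in single regions.

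MHC class II molecules are pairs of an alpha and a beta chain that display peptides from endocytosed proteins to CD4+ T cells. The invariant chain, encoded by Cd74, escorts newly made pairs and plugs their groove. Cathepsin S (Ctss) trims the invariant chain, the H2-DM pair exchanges its last fragment for antigenic peptide, and H2-O restrains H2-DM. CIITA, the class II transactivator, is recruited to class II promoters and sets their transcription. Dendritic cells, macrophages and B cells make class II constitutively, whereas epithelial and stromal cells can be induced to make it by interferon gamma.

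Whole-transcriptome counts were taken with GeoMx digital spatial profiling from formalin-fixed uterus cores of female mice. The paper's general methods describe mice matched at metestrus, without naming the GeoMx mice, and the labels give no cycle stage. Regions were outlined by a pathologist on morphology, with pan-cytokeratin staining for epithelium and smooth muscle actin staining for stroma, so each region is a small bulk sample. The paper selected mucosa, glands and stroma, and the labels used here do not separate mucosa from glands within epithelium. It reported fewer glands and squamous metaplasia in the mutant endometrium. The mix of mucosa and glands in the epithelium sums may thus differ by genotype, which was not tested. Thra1PV/+ mice (PV/N in the labels, PV here) carry 1 germline copy of a dominant-negative thyroid hormone receptor alpha 1, and the wild-type mice (N/N, WT here) carry none. The 6 PV mice were 2.4 to 6.3 months old and the 8 WT mice 4.0 to 9.0 months old, with months assumed because the labels give no unit. No mouse received a treatment according to the labels.

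The first collection plate held 95 regions, 60 of epithelium (31 PV, 29 WT) and 35 of stroma (21 PV, 14 WT). Region totals ran from 61691 to 3130397 counts with a median of 653387, and WT6 had no stroma region on this plate. Counts were summed per mouse and compartment, because regions of a mouse are not replicates, and levels are given as log2 CPM, counts scaled to a common library size (prior count 2). PV2 stood apart: it had 1 epithelium region of 61691 counts, in which 8 of the 9 genes lay at the table's floor of 1 count, and 1 stroma region of 85336 counts. Its epithelium values are therefore bounds, except that of H2-DMb1, which rests on 3 counts, and results that rest on it are given with and without it. The compartment labels held on this plate, since all 11 columnar epithelium markers (Krt8, 4.26 ± 0.17, log2 difference ± SE) were higher and all 9 fibroblast markers (Dcn, -3.30 ± 0.19) lower in epithelium in the paired edgeR test described next. The probe for Thra does not separate the mutant from the normal allele and so checks no genotype label. The panel reads each gene with 1 probe, so levels are compared between samples and not between genes.

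Promoters of class II genes share short elements, the X, X2 and Y boxes, which hold the protein complex that CIITA binds. RefSeq sequence on GRCm38.p6 was at hand for 6 of the 9 genes. The 120 bases before the transcription start are printed below for 4 genes of the class II region on chromosome 17, to show which carry these letters beside the expression values that follow. They lie at chr17:34287824-34287943 on the minus strand for H2-Aa, and on the plus strand at chr17:34305747-34305866 for H2-Eb1, chr17:34153071-34153190 for H2-DMb1 and chr17:34092259-34092378 for H2-Oa. Capitals mark GATTGG (Y box core, also read as CCAATC on the other strand), TAGNAAC (X box core) and TGATGATG or TGACGTCA (X2 forms). The last letters of TAGNAAC and the first of TGATGATG abut without overlap where both occur.
H2-Aa: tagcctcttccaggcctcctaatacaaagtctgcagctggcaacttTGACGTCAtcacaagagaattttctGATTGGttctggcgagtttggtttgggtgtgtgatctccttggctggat
H2-Eb1: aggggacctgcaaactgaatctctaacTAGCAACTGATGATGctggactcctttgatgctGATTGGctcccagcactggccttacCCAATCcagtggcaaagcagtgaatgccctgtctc
H2-DMb1: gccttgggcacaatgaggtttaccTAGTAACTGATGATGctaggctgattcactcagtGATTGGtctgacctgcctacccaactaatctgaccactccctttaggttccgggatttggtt
H2-Oa: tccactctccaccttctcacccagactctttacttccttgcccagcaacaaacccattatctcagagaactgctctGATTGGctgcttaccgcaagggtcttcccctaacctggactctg

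All 4 promoters held a Y box core, which began 49 bases before the start in H2-Aa, 60 in H2-Eb1, 62 in H2-DMb1 and 44 in H2-Oa. An X2 form lay 25 bases ahead of it in H2-Aa, 26 in H2-Eb1 and 27 in H2-DMb1, counted between first bases, so the spacing of both elements was nearly the same in these 3. H2-Oa held no X or X2 letters in this form. Among 32851 promoter windows, which reach from 250 bases before the start to just past it, 14.6% held the Y box core, 9.93% the X box core, 1.24% TGATGATG and 1.55% TGACGTCA on either strand, whereas 0.374% held the Y box core together with an X2 form. H2-DMa had a Y box core 199 bases ahead of 1 of its 2 annotated starts, and the window of Ctss held none of the 4 motifs. These letter forms were chosen after the windows had been read, and a match is a description of sequence only. The genes themselves span chr17:34282744-34287823 (H2-Aa), chr17:34263227-34269418 (H2-Ab1), chr17:34305867-34316674 (H2-Eb1), chr17:34119693-34139101 (H2-DMa), chr17:34153191-34160229 (H2-DMb1) and chr17:34092379-34095234 (H2-Oa), while Ciita lies at chr16:10480014-10531064 and Ctss at chr3:95526786-95556405.

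To ask where class II is expressed in the endometrium, epithelium and stroma were compared within the 13 mice that had both (6 PV, 7 WT). All 9 genes were lower in epithelium than in stroma, by 1.58-fold for H2-Oa to 6.17-fold for H2-Aa. Across all targets 32.3% were called lower in epithelium, and the median log2 difference was -1.55 for the 9 genes and -0.0083 for all 14881 targets. The test was edgeR's quasi-likelihood test with the mouse as a block, and adjusted p-values are over all targets. In regions that hold many cells, fewer cells of a type and less RNA per cell cannot be told apart.

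The invariant chain and the 3 classical chains showed the widest gap. Cd74 ranged from 6.31 to 7.87 (median 6.71) log2 CPM in the 8 WT epithelium sums and from 8.41 to 9.56 (median 8.89) in the 7 WT stroma sums. In PV mice it ranged between 3.98 and 8.34 (median 6.15) in epithelium, the lowest being the bound of PV2, and from 8.43 to 10.12 (median 9.34) in stroma. Every stroma sum lay above every epithelium sum, whatever the genotype. The log2 difference of epithelium from stroma was -2.35 ± 0.20 (SE, 13 mice, edgeR adjusted p = 5.0e-09), or 5.11-fold.

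H2-Aa, the alpha chain of the H2-A molecule, ranged from 5.39 to 6.33 (median 5.79) in WT epithelium and from 7.56 to 8.55 (median 8.16) in WT stroma. In PV mice it ranged between 3.89 and 6.54 in epithelium and from 7.64 to 9.24 in stroma, again without overlap. Its log2 difference was -2.62 ± 0.17 (edgeR adjusted p = 1.2e-10). H2-Ab1, the beta chain that pairs with it, differed by nearly the same amount, -2.61 ± 0.15 (edgeR adjusted p = 2.9e-11, 6.09-fold). It ranged from 3.98 to 6.77 over all epithelium sums and from 7.38 to 9.36 over all stroma sums. H2-Eb1, the beta chain of the H2-E molecule, ranged between 3.94 and 5.97 in epithelium and from 6.36 to 8.29 in stroma, and differed by -2.11 ± 0.14 (edgeR adjusted p = 2.5e-10, 4.30-fold). For these 4 genes stroma was higher in 13 of 13 mice.

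The size of the gap varied between mice. Without PV2, stroma exceeded epithelium by 1.35 (WT8) to 3.67 (PV6) for Cd74 on the log2 scale, by 1.83 (WT1) to 4.05 (PV6) for H2-Aa, by 1.98 (WT1) to 3.71 (PV6) for H2-Ab1 and by 1.38 (WT8) to 2.98 (PV6) for H2-Eb1. PV6 thus had the widest gap for all 4 genes. The log2 ratio of H2-Ab1 to H2-Aa, the H2-A chains, was higher in stroma in 6 of 12 mice, with changes from -0.34 to 0.51 and a median of -0.029. That of H2-Eb1 to H2-Aa was lower in stroma in 12 of 12 mice, with changes from -1.07 to -0.22 and a median of -0.45.

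**Figure D1:**
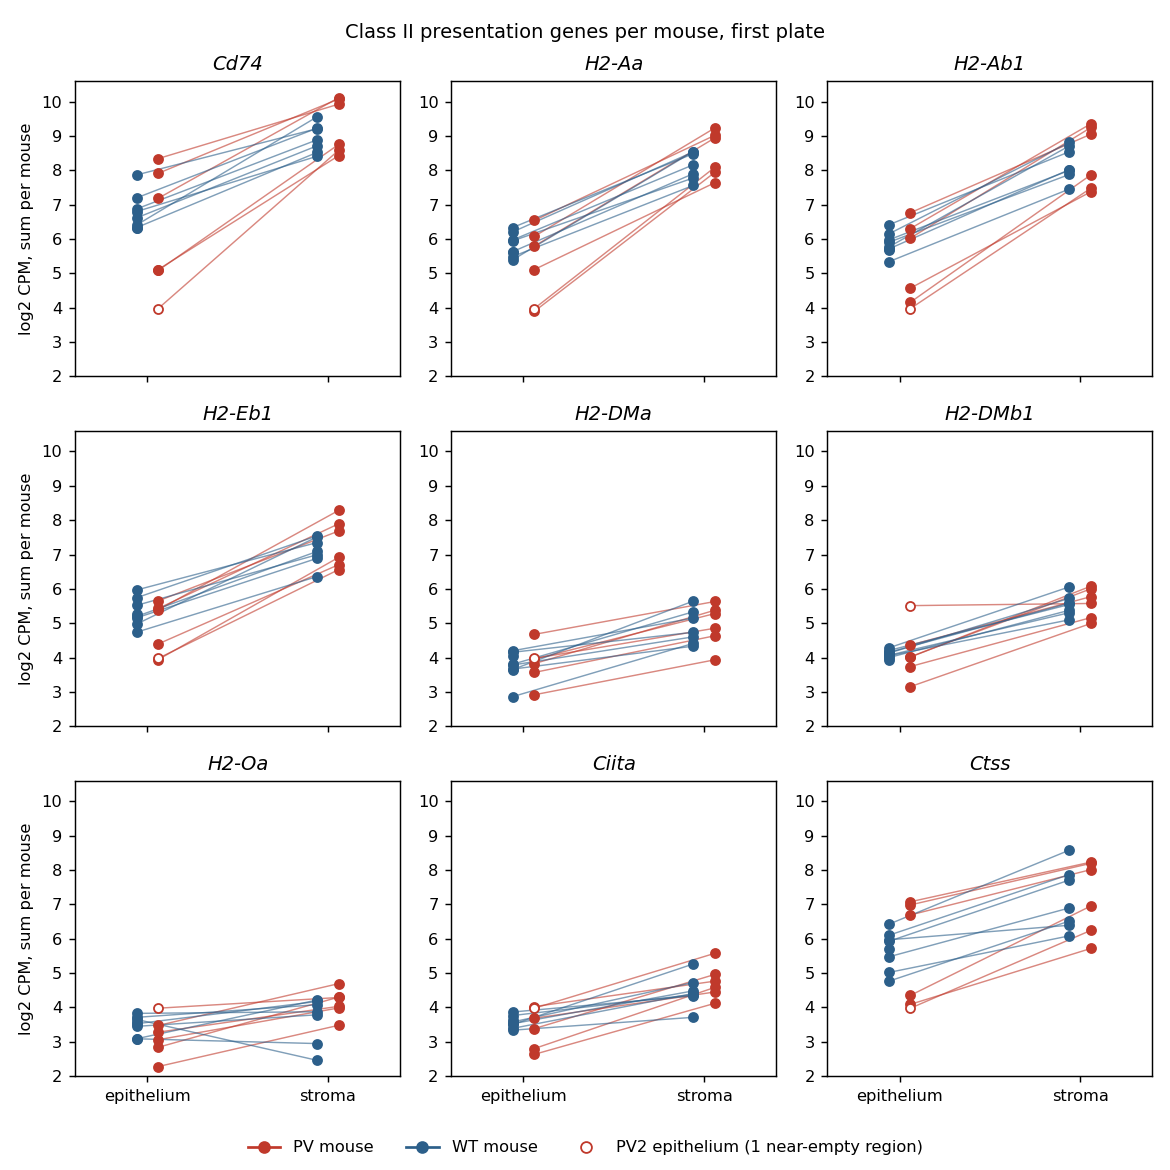
Level of each of the 9 genes (log2 CPM, vertical axis) in the epithelium and the stroma sum of every mouse on the first plate, with a line joining the sums of 1 mouse, WT and PV mice in separate colours and the low-count PV2 epithelium sum drawn hollow. The lines for Cd74, H2-Aa, H2-Ab1 and H2-Eb1 climb in all 13 mice, while those of H2-Oa cross, with WT2 and WT3 lower in stroma. The WT2 stroma value of H2-Oa rests on 2 counts.

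The peptide-loading genes showed smaller gaps, but they also lay closer to background, as given below. H2-DMb1, the beta chain of the exchange factor, ranged from 3.94 to 4.28 (median 4.10) in WT epithelium, the tightest group of any of the 9 genes, with an SD of 0.11. In WT stroma it ranged from 5.10 to 6.06 (median 5.55), and its log2 difference of epithelium from stroma was -1.55 ± 0.11 (edgeR adjusted p = 5.1e-10, 2.92-fold). H2-DMa, its partner, differed by -1.27 ± 0.13 (edgeR adjusted p = 7.1e-08, 2.42-fold). Both were higher in stroma in 13 of 13 mice. The sums of H2-DMa overlapped across mice, running between 2.86 and 4.68 in epithelium and from 3.94 to 5.64 in stroma, and those of H2-DMb1 overlapped only through PV2, where its epithelium value was 5.51.

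H2-Oa, the alpha chain of the H2-DM inhibitor, had the smallest gap, -0.66 ± 0.17 (edgeR adjusted p = 0.0021). It ranged from 3.09 to 3.83 in WT epithelium and from 2.46 to 4.22 in WT stroma, so the WT groups overlapped fully. Stroma was higher in 11 of 13 mice, the exceptions being WT2 (-1.19) and WT3 (-0.14). The WT2 stroma value, 2.46, rested on 2 counts in 1 region, close to the floor of 1 count, and is imprecise. In the WT mice alone the difference did not pass the test (-0.32 ± 0.19, edgeR adjusted p = 0.177), whereas in the PV mice it did (-1.12 ± 0.22).

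Ciita, the transactivator, ranged from 2.63 to 4.02 over the epithelium sums and from 3.71 to 5.58 over the stroma sums. Its log2 difference was -1.11 ± 0.14 (edgeR adjusted p = 2.1e-06, 2.16-fold), and stroma was higher in 13 of 13 mice. Ctss ranged between 3.98 and 7.08 in epithelium and from 5.72 to 8.58 in stroma, and differed by -1.52 ± 0.15 (edgeR adjusted p = 3.6e-08, 2.87-fold), also higher in stroma in 13 of 13 mice. Relative to H2-Aa, Ctss was lower in stroma than in epithelium in 12 of 12 mice without PV2, with a median log2 change of -1.0.

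Several of these genes lay close to background, which narrows a difference. The count of Cd74 exceeded 2 times the negative-probe level in 59 of 60 epithelium regions and in 35 of 35 stroma regions, with median ratios of 19.4 and 98.1. H2-DMb1 did so in 47 of 60 epithelium regions, H2-DMa in 37, Ciita in 25 and H2-Oa in 15. In stroma, H2-DMb1 passed in 35 of 35 regions, H2-DMa in 34, Ciita in 33 and H2-Oa in 24. H2-Ea, the alpha chain of the H2-E molecule, was not in the filtered table. It passed in 14 of 60 epithelium and 10 of 35 stroma regions, so the values of H2-Eb1 do not measure an H2-E molecule. With the negative-probe level subtracted before summing, the difference of Ciita became -1.78 and that of H2-Oa -1.16. The median epithelium ratios of H2-DMb1 and H2-DMa were 2.72 and 2.17. Over the processing alternatives given at the end, apart from the second plate alone, their widest differences were -2.01 and -1.76, against -2.69 for Cd74. How far background sets the order of the gaps between genes was not tested.

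Within WT mice alone, 8 of 9 genes were called lower in epithelium, against 24.5% of all targets. Within PV mice, 9 of 9 were called, against 25.0% of all targets. The differences ranged from -0.32 (H2-Oa) to -2.32 (H2-Ab1) in WT mice and from -1.12 (H2-Oa) to -3.11 (H2-Aa) in PV mice. All 9 values were further from 0 in PV than in WT mice. The median difference of the PV from the WT values was -0.71 for the 9 genes, against -0.015 for all targets. Because Cd74, H2-Aa, H2-Ab1 and H2-Eb1 moved together over regions, as given below, the 9 are not separate observations. The test of this genotype difference, the genotype by compartment term, called 0 of 9 genes and 0% of all targets in either direction. At an unadjusted p under 0.05 it held 4 of the 9 genes, all below 0, among 444 targets above and 624 below 0, and DESeq2 called 1 target and no member. These 4 were H2-Eb1 (-0.76 ± 0.22, edgeR p = 0.0031, adjusted p = 0.58), H2-Aa (-0.81 ± 0.27, edgeR p = 0.0078), H2-Ab1 (-0.71 ± 0.24, edgeR p = 0.0089) and H2-Oa (-0.80 ± 0.29, edgeR p = 0.013). Without PV2 the 4 values were -0.76, -0.78, -0.70 and -0.82. Without PV6 the values of H2-Aa and Ctss became -0.60 and 0.19.

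**Figure D2:**
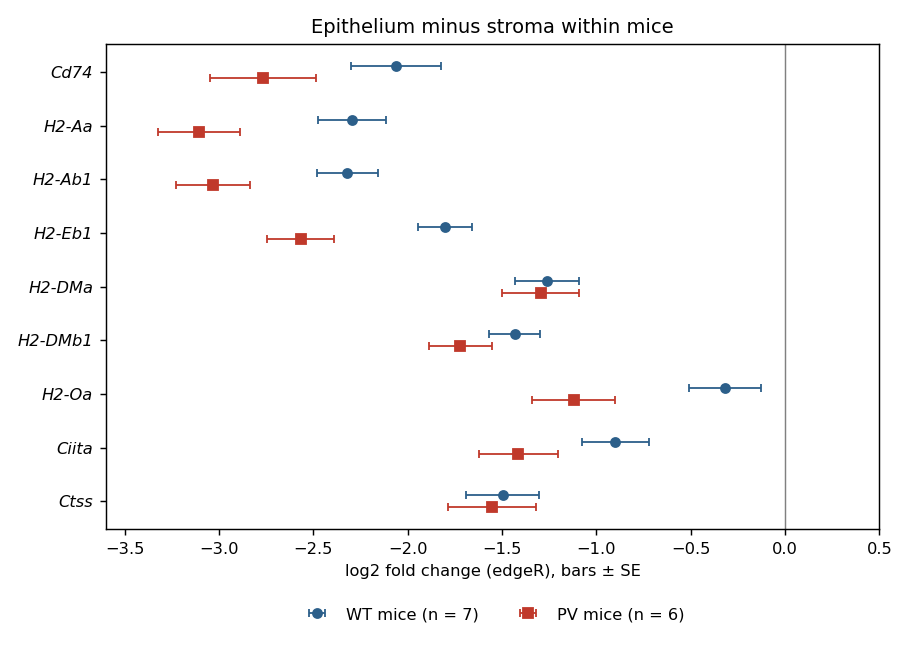
Log2 difference of epithelium from stroma for each of the 9 genes, estimated by edgeR in WT mice (n = 7) and in PV mice (n = 6), with bars of ± 1 SE. All points lie below 0, and the PV point lies further from 0 for every gene, with a difference of -0.033 for H2-DMa and -0.81 for H2-Aa that did not pass the adjusted test for any of the 9.

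Among the other genes of class II presentation, 20 were fitted, of which 9 were lower and 5 higher in epithelium in edgeR's paired test, against 32.3% and 30.7% of all targets, with a median log2 difference of -0.13. The lower ones included H2-Ob (-1.03 ± 0.15), the beta chain that pairs with H2-Oa, the lysosomal reductase Ifi30 (-0.59 ± 0.15), the protease legumain (Lgmn, -1.05 ± 0.19) and H2-DMb2 (-0.63 ± 0.14), which is a near copy of H2-DMb1, so their probes may share signal. The costimulatory genes Icosl (-0.93 ± 0.12), Cd86 (-0.76 ± 0.16), Cd80 (-0.75 ± 0.15) and Cd40 (-0.60 ± 0.14) were lower as well. The higher ones were the general lysosomal proteases Ctsb (0.80 ± 0.13) and Ctsd (0.96 ± 0.33), the ubiquitin ligase Marchf8 (0.48 ± 0.081) and the promoter-binding factors Rfx5 (0.38 ± 0.14) and Nfyc (0.62 ± 0.11). Their partners Rfxap (0.17 ± 0.13), Rfxank (-0.23 ± 0.12), Nfya (0.18 ± 0.11), Nfyb (-0.024 ± 0.099) and Creb1 (0.084 ± 0.099) did not pass the test. No promoter-binding factor of the list was called lower in epithelium.

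Class I presentation, which almost all cells carry out, was read beside it. Of its 13 genes, 5 were called higher and 4 lower in epithelium, against 30.7% and 32.3% of all targets, with a median log2 difference of -0.075. Its difference from class II was not tested. Among its most abundant genes, H2-K1 (-0.19 ± 0.15) and H2-D1 (-0.075 ± 0.14) did not pass the test, and B2m was lower (-0.65 ± 0.16). Of 15 interferon gamma pathway genes fitted, 10 were lower and 2 higher in epithelium, the higher ones being Jak2 (2.41 ± 0.16) and Ifngr2 (1.52 ± 0.12).

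Markers of cells that make class II were lower in epithelium too, and so were those of other cells of the stroma. Against 32.3% of all targets, 9 of 9 fibroblast (median -2.73), 5 of 5 smooth muscle and 5 of 5 endothelial markers were called lower. The median was -2.05 for the macrophage list and -0.98 for the dendritic cell list. Of 11 macrophage markers 10 were lower in epithelium, among them C1qa (-2.55 ± 0.22), C1qb (-2.52 ± 0.23), Csf1r (-2.45 ± 0.16) and Adgre1 (-2.37 ± 0.19), and Cd68 did not pass (-0.15 ± 0.15). All 9 dendritic cell markers were lower, from Cd209a (-0.66 ± 0.13) to Clec9a (-1.53 ± 0.15). Of 8 B cell markers only Ms4a1 (-0.54 ± 0.17), Cd22 (-0.75 ± 0.16) and Cd79b (-0.27 ± 0.13) were in the filtered table, and the first pair was lower. All 5 general leukocyte genes were lower. The summed level of the 11 macrophage genes ran from 213 to 454 CPM in WT epithelium and from 574 to 3046 CPM in WT stroma, the 9 dendritic cell genes from 64.4 to 155 and from 146 to 211 CPM, and the 3 B cell genes from 23.5 to 45.7 and from 26.0 to 65.9 CPM. Over the same sums Cd74, H2-Aa, H2-Ab1 and H2-Eb1 together ran from 189 to 452 CPM in WT epithelium and from 811 to 1729 CPM in WT stroma. The part of these cell types in the class II difference was not tested.

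Single regions were read next, with the mean log2 CPM of Cd74, H2-Aa, H2-Ab1 and H2-Eb1 as their class II level. It ran from 3.51 to 7.35 (median 5.78) over 60 epithelium regions and from 7.31 to 10.23 (median 8.37) over 35 stroma regions. Only 1 epithelium region, from WT8, exceeded the lowest stroma region, and 3 stroma regions lay below that epithelium region. For H2-Aa alone the compartments did not overlap, with 7.04 as the highest epithelium and 7.31 as the lowest stroma region. For Ctss they overlapped, with 56 of 60 epithelium regions above the lowest stroma region (4.33, from PV5) and 29 of 60 above the next lowest (5.62).

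Regions of a mouse differed about as much as mouse means did in stroma, and less than mouse means did in epithelium. The pooled SD within mice was 0.54 in epithelium and 0.59 in stroma, and the SD of the mouse means was 0.76 in epithelium (0.67 without PV2) and 0.59 in stroma. PV1, the most sampled mouse, ran from 4.62 to 7.07 over 15 epithelium regions and from 8.16 to 10.23 over 10 stroma regions. PV6 had the lowest epithelium region, and its epithelium regions ran from 3.51 to 4.85 over 3. The epithelium regions of PV3 (6.52 to 6.53 over 2) and WT4 (5.38 to 5.42 over 3) lay close together.

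**Figure D3:**
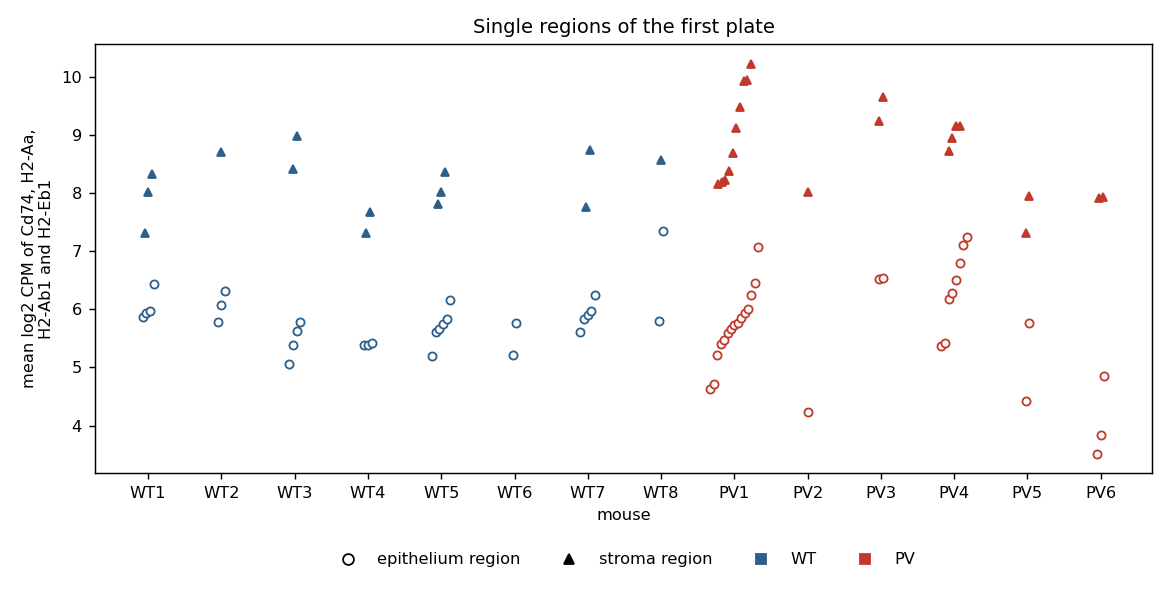
Class II level (mean log2 CPM of Cd74, H2-Aa, H2-Ab1 and H2-Eb1) of every first-plate region, grouped by mouse and ordered from lowest to highest within each, for epithelium and stroma. Epithelium regions lie between 3.51 and 7.35 and stroma regions between 7.31 and 10.23, and the 15 epithelium regions of PV1 run from 4.62 to 7.07.

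The 4 genes moved together from region to region. Pearson's r between pairs of them was 0.79 to 0.92 over 60 epithelium regions and 0.93 to 0.97 over 35 stroma regions, and 0.71 to 0.88 and 0.90 to 0.98 after each region was centred on its mouse. Without PV2 the epithelium range was again 0.79 to 0.92. Regions share mice, cores and a plate, so these values describe the regions and carry no p. Pairs that held H2-DMa, H2-DMb1, H2-Oa, Ciita or Ctss ran lower, between -0.065 and 0.61 in epithelium and from 0.047 to 0.83 in stroma. In stroma Cd74 had an r of 0.80 with H2-DMb1, 0.82 with Ctss, 0.49 with Ciita and 0.14 with H2-Oa. In epithelium its r was -0.026 with Ciita and 0.028 with H2-Oa. Ciita and H2-Oa exceeded 2 times the negative-probe level in only 25 and 15 of the 60 epithelium regions. Their r may thus be low through background, which was not tested. With the log2 total of a region the class II level had an r of 0.038 in epithelium and 0.027 in stroma.

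The targets most alike in pattern differed between the compartments. Over the 60 epithelium regions the 5 highest correlations with the class II level were those of C1qb (0.84), Apoe (0.83), C1qa (0.79), C1qc (0.78) and Mpeg1 (0.76), of which the complement C1q genes are macrophage markers. After centring on the mouse Apoe was first at 0.74, followed by C1qc and C1qb (both 0.72), Tyrobp (0.71) and C1qa (0.68). The other macrophage markers did not all share this: the r of the 11 ran from -0.038 (Mrc1) to 0.84 with a median of 0.37, Adgre1 being at 0.52, Mertk at 0.057 and Cd68 at 0.0010. The 9 dendritic cell markers ran from 0.079 to 0.56 (median 0.15) and the 3 B cell markers from -0.11 to 0.031. Many of these lay near background in epithelium. The dendritic cell markers exceeded 2 times the negative-probe level in 10 (Flt3) to 42 (Cd209a) of 60 regions. The B cell markers did so in 12 (Ms4a1) to 35 (Cd79b), against 57 for C1qa, C1qb and C1qc and 56 for Cd68. How far background lowered these r was not tested. Over the 35 stroma regions the highest were those of Irf5 (0.87), a transcription factor of myeloid cells, Cst3 (0.86), a cathepsin inhibitor, Csf2ra (0.84), a receptor chain for GM-CSF, Neurl3 (0.84) and Slc15a3 (0.83). After centring the order changed to Eif1 (0.88), Lcp1 (0.88), Tmsb4x (0.87), Jak2 (0.86) and Irf5 (0.84), with Neurl3 at 0.68. PV1 supplied 10 of the 35 stroma regions, the most of any mouse. PV2, WT2 and WT8 had 1 stroma region each and add nothing to a centred value. Without PV2 and before centring Cst3 came first at 0.87. In stroma the class II level had an r above 0 with 10 of 11 columnar markers (-0.14 to 0.72, median 0.46) and with 2 of 9 fibroblast markers (-0.47 to 0.53, median -0.31). After centring the medians were 0.35 and -0.50. With B2m the r was 0.64.

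**Figure D4:**
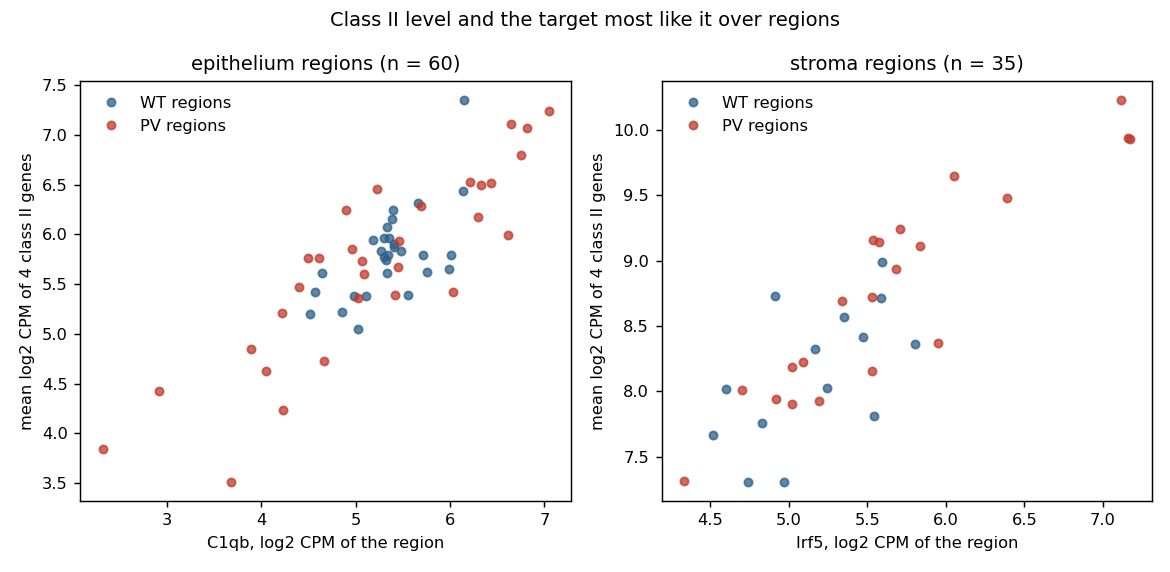
Class II level of single regions (mean log2 CPM of Cd74, H2-Aa, H2-Ab1 and H2-Eb1, vertical axis) against the most alike target of each compartment (log2 CPM, horizontal axis), C1qb in 60 epithelium regions and Irf5 in 35 stroma regions, before centring and with PV2 included. Pearson's r was 0.84 and 0.87, and the level climbs with the target in both panels.

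The question of the study was what the mutant receptor changes, and PV was next compared with WT in each compartment. In epithelium (6 PV, 8 WT mice) 0 of the 9 genes were called, against 0% of all targets in either direction. At an unadjusted p under 0.05 no member was found among 702 targets above and 535 below 0, and DESeq2 called 28 targets but no member. The log2 differences of PV from WT ran from -0.40 ± 0.21 for H2-Oa (edgeR adjusted p = 0.63) to 0.56 ± 0.42 for Ctss (edgeR adjusted p = 0.75), with 4 genes above and 5 below 0 and a median of -0.038, against 0.0074 for all targets. Cd74 was at 0.32 ± 0.47 (edgeR adjusted p = 0.92), H2-Aa at -0.099 ± 0.31, H2-Ab1 at 0.0077 ± 0.33 and H2-Eb1 at -0.21 ± 0.27.

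PV epithelium was spread more widely than WT epithelium. Cd74 was 8.34 in PV4, 7.91 in PV3, 7.19 in PV1, 5.11 in PV5, 5.09 in PV6 and at the bound of 3.98 in PV2. PV3 and PV4 lay above all 8 WT mice, PV1 within them, and PV2, PV5 and PV6 below all of them. The SD was 1.78 in PV mice, or 1.54 without PV2, and 0.53 in WT mice, a difference in spread that was not tested. The difference of the mean log2 values lay on the other side of 0 from that of the count fit, at -0.53 (exact permutation p = 0.44 over 3003 divisions of the mice, two-sided), and at -0.073 without PV2 (exact permutation p = 0.91). Ctss split in the same way, with PV1, PV3 and PV4 at 6.69, 7.08 and 6.98, above every WT mouse, and PV5 and PV6 at 4.09 and 4.35, below every WT mouse.

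H2-Oa had the smallest unadjusted p of the 9 genes in epithelium. It was 3.28 in PV1, 3.47 in PV3, 2.84 in PV4, 2.28 in PV5 and 3.06 in PV6, all below the WT median of 3.55. The lowest, that of PV5, rested on 3 counts over 2 regions, each with a floor of 1 count, and is imprecise. Without PV2, whose value is a bound, the means differed by -0.50 (exact permutation p = 0.026 over 1287 divisions, two-sided, not adjusted over the genes), and with it by -0.34 (exact permutation p = 0.17). The adjusted p of the fit without PV2 was 0.57 (edgeR, -0.41 ± 0.21). This gene was above 2 times the negative-probe level in 15 of 60 epithelium regions.

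For the other loading genes and the transactivator the difference in epithelium did not pass the permutation test. H2-DMb1 in epithelium was 4.01 in PV1, 4.02 in PV3, 4.36 in PV4, 3.15 in PV5 and 3.74 in PV6, against 3.94 to 4.28 in WT mice, and the means differed by -0.24 without PV2 (exact permutation p = 0.15, two-sided), which exceeds the SD of 0.11 in WT mice but not that of 0.45 in PV mice. Ciita was 3.38, 4.02, 2.80, 2.63 and 3.68 in the same mice, against 3.34 to 3.87 in WT mice, a difference of -0.27 (exact permutation p = 0.24) beside an SD of 0.18 in WT and 0.59 in PV mice. H2-DMa was 3.82, 4.68, 3.96, 2.92 and 3.57, against 2.86 to 4.20 (0.018, exact permutation p = 0.96). PV5 had the lowest PV value of all 3 genes. Its values rested on 6 counts of H2-DMb1, 4 of Ciita and 5 of H2-DMa over 2 regions, and are imprecise.

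In stroma (6 PV, 7 WT mice) all 9 genes lay above 0, with a median log2 difference of 0.39 against 0.011 for all targets, and 0 of 9 were called, against 0% of all targets in either direction. Because Cd74, H2-Aa, H2-Ab1 and H2-Eb1 moved together over regions, these 9 signs are not separate observations. No member had an unadjusted p under 0.05 in edgeR, among 316 targets above and 207 below 0, and DESeq2 called 2 targets and no member. Cd74 was at 0.53 ± 0.32, H2-Aa at 0.45 ± 0.29, H2-Oa at 0.40 ± 0.26, H2-Eb1 at 0.40 ± 0.28, H2-Ab1 at 0.39 ± 0.34 and Ciita at 0.26 ± 0.23. H2-DMb1 (0.19 ± 0.20), Ctss (0.19 ± 0.43) and H2-DMa (0.15 ± 0.26) were closest to 0. The edgeR adjusted p was 1.00 for each of the 9. With age as a covariate Cd74 was at 0.86 ± 0.35 (edgeR adjusted p = 0.54) and Ctss at 0.92 ± 0.42 (edgeR adjusted p = 0.60).

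The PV mice differed among themselves in stroma too. Cd74 in stroma was 10.12 in PV1, 10.08 in PV3 and 9.93 in PV4, above the WT range of 8.41 to 9.56. It was 8.76 in PV6, 8.59 in PV2 and 8.43 in PV5, in the lower part of that range. The means differed by 0.38, which did not pass the permutation test (exact permutation p = 0.29 over 1716 divisions, two-sided). For H2-Aa, H2-Ab1 and H2-Eb1 too, PV1, PV3 and PV4 lay above all 7 WT mice, with H2-Aa at 9.24, 8.95 and 9.02 against a highest WT value of 8.55. H2-Oa in stroma ran from 3.48 (PV5) to 4.69 (PV3) in PV mice and from 2.46 (WT2) to 4.22 (WT7) in WT mice, a difference of 0.48 (exact permutation p = 0.17). Its values in WT2 and PV2 rested on 2 counts each. PV1, PV3 and PV4 also had the highest PV levels of Cd74, H2-Aa, H2-Ab1 and H2-Eb1 in epithelium. PV1, PV3 and PV4 were 4.2, 5.9 and 4.0 months old, PV2 and PV5 2.4 and PV6 6.3 months, and no WT mouse was as young as PV2 and PV5.

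**Figure D5:**
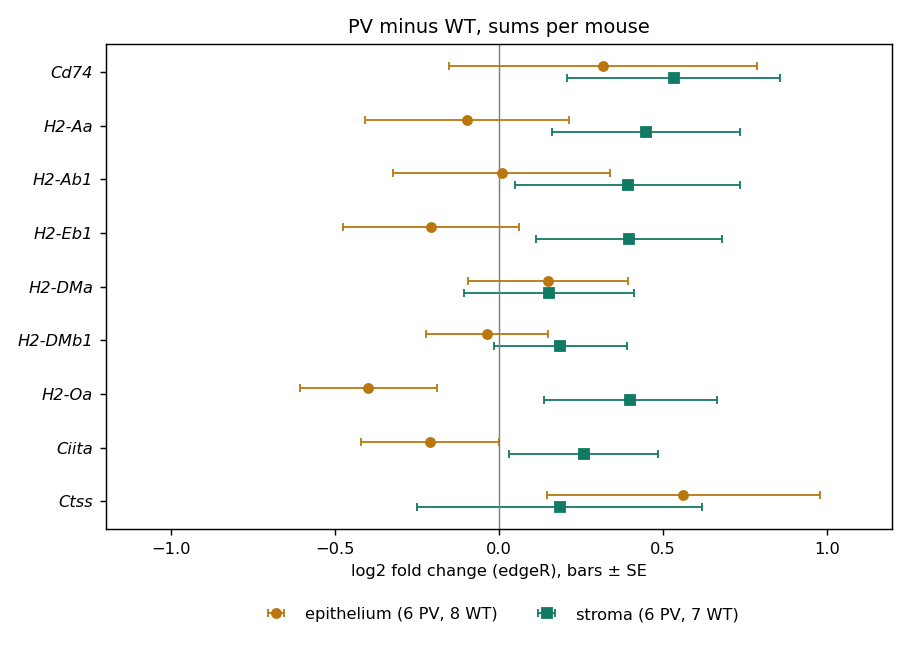
Log2 difference of PV from WT for each of the 9 genes in epithelium (6 PV, 8 WT mice) and in stroma (6 PV, 7 WT mice), estimated by edgeR with bars of ± 1 SE. The stroma points lie between 0.15 and 0.53, all above 0, the epithelium points between -0.40 and 0.56, and no point passed the adjusted test.

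Cell type markers were read beside these values. The summed level of Cd74, H2-Aa, H2-Ab1 and H2-Eb1 in PV stroma was 2632 CPM in PV1, 928 in PV2, 2466 in PV3, 2229 in PV4, 813 in PV5 and 1031 in PV6, against 811 to 1729 CPM in WT mice. The summed macrophage level was 1418, 291, 1185, 1505, 454 and 1405 CPM in the same order, none above the WT range of 574 to 3046 CPM and those of PV2 and PV5 below it. WT3 had the highest macrophage sum, 3046 CPM, with a class II sum of 1729 CPM, the highest among WT mice. Of the 11 macrophage markers 3 were above 0 in PV stroma (median -0.35) and none was called, and 5 of 9 dendritic cell markers were (median 0.099). The genes of plasma cells, which have switched class II off, summed to between 610 and 14808 CPM in PV stroma and between 256 and 2822 CPM in WT stroma. Of 15 interferon gamma pathway genes 14 were above 0 in PV stroma, with a median of 0.46, none of them called, Ifngr2 at 0.58 ± 0.24 and Irf1 at 0.46 ± 0.34. Their summed level stood out in PV1 alone, at 2632 CPM, the other PV sums running from 611 to 978 CPM (PV median 714) and the WT sums from 668 to 1136 CPM (median 727). No class I gene was called, with B2m at -0.38 ± 0.44, H2-K1 at -0.40 ± 0.42 and H2-D1 at -0.40 ± 0.42. Their part in the values of the 9 genes was not tested.

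The study compared mice under 5 months with older ones, and the genotype effect was therefore set against age class. The term called 0 of 9 genes and 0% of all targets in either direction, in epithelium and in stroma. It compared 4 younger and 2 older PV mice with 2 younger WT mice and 6 older ones (5 in stroma). In younger stroma PV exceeded WT by 0.78 ± 0.54 for Cd74, 0.79 ± 0.47 for H2-Aa, 0.84 ± 0.55 for H2-Ab1, 0.81 ± 0.45 for H2-Eb1 and 0.80 ± 0.36 for H2-DMa (edgeR p = 0.042, adjusted p = 0.61). In older stroma the values were 0.50 ± 0.49, 0.26 ± 0.43, 0.37 ± 0.50, 0.22 ± 0.42 and -0.018 ± 0.35. In epithelium H2-Aa was at 0.25 ± 0.47 in the younger and -0.77 ± 0.48 in the older mice, a difference of -1.02 ± 0.67 (edgeR adjusted p = 1.00).

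The second collection plate held 94 regions and was not used for the tests, since its compartment labels did not follow the markers. A score of columnar minus fibroblast markers ran from -5.20 to 2.95 over the regions labelled epithelium there and from -5.06 to 3.31 over those labelled stroma, against 0.68 to 4.08 and -5.28 to -2.21 on the first plate. As labelled, the class II level had a median of 6.74 in epithelium and 7.16 in stroma on the second plate. Against the marker score it had an r of -0.75 over its 94 regions and -0.83 over the 95 regions of the first plate, a description that does not rest on the labels. Over the regions of 1 compartment on the first plate the r was -0.19 in epithelium and 0.51 in stroma, so the first-plate value reflects the step between the compartments.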

How the data were processed

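GeoMx regions of mouse uterus were read as deposited. The authors' count table holds expected counts per target, made with GeoMx NGS Pipeline 2.3.3.10, with 0 replaced by 1, for 19962 targets and 189 regions. The authors' normalised table holds signal values, in which each region was scaled by its upper quartile (Q3), for the 14881 targets that passed their detection filter, besides the negative probe. The roles of other tools and of the build named in the submitters' processing notes are not given in the sources used here. The authors tested regions with a linear mixed model. Here counts were rounded and summed per mouse and compartment over first-plate regions, because the replicate is the mouse. The labels name 14 mice and the design text 13, and the labels were followed.

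Sums were tested with edgeR 4.0.16 (R 4.3.3, glmQLFit and glmQLFTest after TMM scaling) as a two-sided test, and p-values were adjusted by Benjamini-Hochberg over 14881 targets, with a threshold of 0.05. The compartment and genotype by compartment terms had the mouse as a block. Both sums of a mouse come from the same animal, and their deviations from the group means correlated at 0.16 to 0.53 (13 of 13 mice over 0.1, median -0.074 between different mice of a genotype). Genotype within a compartment had no covariate. Single genes also had an exact permutation test of mean log2 CPM (prior count 2), not adjusted over the genes. The fits were also run on simulated counts, drawn without a mouse effect and with the same spread in both genotypes. Those runs therefore do not check the fits for correlated sums of a mouse or unequal spread. Alternatives were DESeq2 1.42.0, limma 3.58.1 on log2(Q3 value + 1), other scaling, filters, plates, background, age, and each mouse left out. The genes, lists, tests and letter forms were chosen with earlier results of these data known. All 9 genes are named. Of the other class II genes and of macrophage, dendritic cell and B cell markers any may be named, of other lists the 3 with the highest mean, and per compartment the 5 targets most correlated, before or after centring on the mouse, with Cd74, H2-Aa, H2-Ab1 and H2-Eb1. Counts cover counting of probe tags only, and values near the negative-probe level are imprecise. No-template controls and per-region probe files were not used here.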

Additional observations from a re-analysis of the deposited data

Results flagged for a closer look

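H2-DMa in the epithelium of WT4 lay at 2.86 log2 CPM, while the other 7 WT mice lay between 3.65 and 4.20. The gap to the nearest mouse was 0.59 of the whole range. Of 36 groups of mice tested in this way it was the 1 that stood apart, and chance sets apart about 1 in 20 such groups.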

How the results depend on the processing

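The compartment difference held on the first plate: 9 of 9 genes were called with no replicate block (Cd74 -2.20, H2-Oa -0.67), with DESeq2, under each scaling, filter and background alternative, and without each mouse in turn (H2-Oa -0.76 to -0.55). Upper-quartile scaling, limma on Q3 values and the unfiltered table moved the median of all targets to -0.18, -0.14 and -0.13. With both plates 8 genes were called and the differences shrank, Cd74 standing at -1.04, H2-Aa at -1.2, H2-Ab1 at -1.18, H2-Eb1 at -0.93, Ctss at -0.81, H2-DMb1 at -0.71, H2-DMa at -0.60, Ciita at -0.48 and H2-Oa at -0.18 (adjusted p = 0.31). On the second plate alone, whose labels do not follow the markers, 0 genes were called by edgeR and the values were Cd74 0.23, Ciita 0.12, H2-Aa 0.096, H2-Ab1 0.11, H2-DMa 0.097, H2-DMb1 0.14, H2-Eb1 0.12 and H2-Oa 0.17, with Ctss at -0.14. No gene was called for genotype, genotype by compartment or genotype by age under any alternative run, and the causes of the sign changes that follow were not tested.

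For PV minus WT in epithelium, both plates gave Ciita 0.27, H2-Aa 0.29, H2-DMb1 0.27, H2-Eb1 0.25 and H2-Oa 0.068, and the second plate Ciita 0.47, H2-Aa 0.053, H2-DMb1 0.31, H2-Eb1 0.14 and H2-Oa 0.37. Limma on Q3 values gave Cd74 -0.52, Ctss -0.30, H2-Ab1 -0.56 and H2-DMb1 0.067, and limma over regions Cd74 -0.27, Ctss -0.093, H2-Ab1 -0.41 and H2-DMa -0.035. H2-Ab1 was -0.044 with DESeq2, -0.039 with background subtracted and -0.069 with upper-quartile scaling, and H2-DMb1 was 0.015 in both unfiltered fits. Without 1 mouse the ranges were -0.15 to 0.53 for Cd74, -0.41 to 0.075 for H2-Aa, -0.35 to 0.17 for H2-Ab1, -0.038 to 0.25 for H2-DMa and -0.18 to 0.059 for H2-DMb1.

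For PV minus WT in stroma, both plates gave Ciita -0.081, H2-DMa -0.015, H2-DMb1 -0.091 and H2-Eb1 -0.034, and the second plate Cd74 -0.082, Ciita -0.34, H2-Aa -0.41, H2-Ab1 -0.28, H2-DMa -0.050, H2-DMb1 -0.33, H2-Eb1 -0.46 and H2-Oa -0.088. On the first plate all 9 stayed above 0 under each alternative, except Ctss without PV4 (range -0.0041 to 0.52).

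For genotype by compartment, both plates gave Ciita 0.31, Ctss 0.44, H2-Aa 0.13, H2-Ab1 0.19, H2-DMa 0.25, H2-DMb1 0.37 and H2-Eb1 0.22, and the second plate Cd74 0.25, Ciita 0.74, Ctss 0.31, H2-Aa 0.44, H2-Ab1 0.36, H2-DMa 0.25, H2-DMb1 0.64, H2-Eb1 0.50 and H2-Oa 0.44. H2-DMa was 0.0089 in both unfiltered fits, 0.025 with limma and 0.061 with background subtracted. Without 1 mouse it ranged from -0.22 to 0.12 and Ctss from -0.18 to 0.19, while H2-Aa stayed between -0.99 and -0.60 and H2-Eb1 between -0.93 and -0.62. Few counts in PV2 and the closeness of H2-Oa and Ciita to background limit what these values can show.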
